A study of Mus musculus with 8 samples.

Results

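The cells described here were 569 of 37757 droplet barcodes from MC38 tumours, chosen by their RNA to catch mature dendritic cells. A barcode was a member when it held at least 3 unique molecular identifiers (UMIs, each counting 1 captured transcript) of Ccr7 and Fscn1 together and at least 5 UMIs of the class II genes H2-Ab1, H2-Aa and H2-Eb1. It also had to hold under 100 UMIs per 10000 of the macrophage genes C1qa, C1qb, C1qc, Apoe and Lyz2, and at most 1 UMI each of the Cd3 genes and of the B cell genes Cd79a, Cd79b and Ms4a1. Because these counts chose the cells, their levels are given as description and carry no test.

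MC38 is a mouse colon carcinoma line, and CD45+ cells were sorted from tumours grown in wild-type mice. There were 2 libraries after LNP-Sirpa treatment, which the title of the series ties to degradation of SIRPα directed at the tumour, and 2 control libraries. What the controls received, the dose and the animals' age are not given in the labels used here. Separate animals are not named for the 2 libraries of a group, and the spread behind each p-value is therefore that between 2 libraries, which may be technical.

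LNP-Sirpa libraries 1 and 2 held 10348 and 9008 barcodes with 85810250 and 70581678 UMIs, against 7511 and 10890 barcodes with 68654004 and 90789729 UMIs in control libraries 1 and 2. Every barcode held at least 1000 UMIs. Barcode names are numbers without a sequence, and 5001 of 32295 names occurred in more than 1 library, so shared droplets could not be looked for. Values below are UMI counts summed over the members of a library and scaled by the total UMIs of those cells to CPM. A log2 difference compares the LNP-Sirpa with the control libraries and is given ± its SE from edgeR (n = 2 libraries per group).

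Mature dendritic cells are the migratory state that conventional dendritic cells enter after taking up material or sensing danger. They turn on the chemokine receptor CCR7, which guides them toward lymph nodes, and fascin, the actin-bundling protein encoded by Fscn1. In tumours they are known for carrying T cell costimulators together with inhibitory ligands such as PD-L1, and for the chemokines CCL17 and CCL22, which attract T cells bearing CCR4.

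The gate was not uniform. Of the 569 members, 361 held at least 2 Ccr7 UMIs and 208 held fewer. Among the 208, 182 held no Ccr7 UMI and had entered through Fscn1 alone. The 361 cells are called Ccr7-rich and the 208 cells Ccr7-poor below. This division was made after the values were seen, so it serves as description here, and calls within its groups are counted only among the alternatives. LNP-Sirpa libraries 1 and 2 held 149 and 42 Ccr7-rich cells, against 78 and 92 in control libraries 1 and 2. The Ccr7-poor cells numbered 73 and 33 in the LNP-Sirpa libraries and 59 and 43 in the control libraries.

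**Figure D1:**
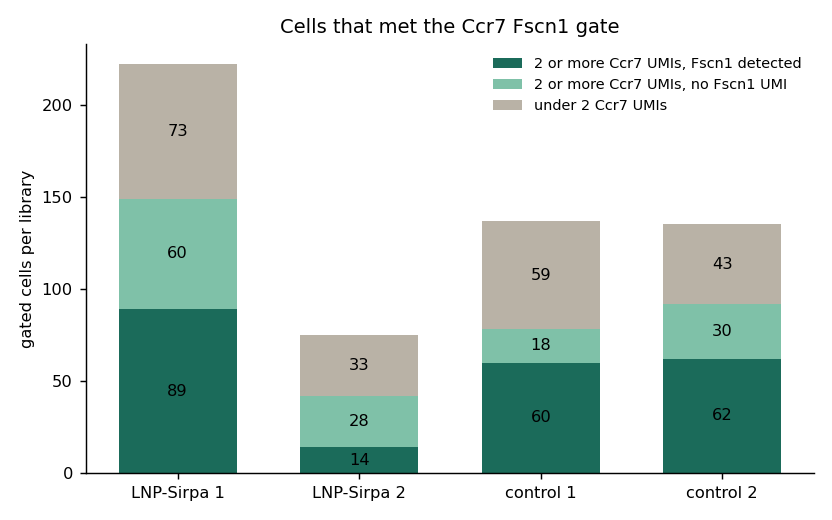
Gated cells per library (y axis, number of cells) for LNP-Sirpa 1, LNP-Sirpa 2, control 1 and control 2, with Ccr7-rich cells divided by whether a Fscn1 UMI was found. LNP-Sirpa 1 held 149 and LNP-Sirpa 2 held 42 Ccr7-rich cells, and each library also held from 33 to 73 Ccr7-poor cells.

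Ccr7-rich cells carried the genes of mature dendritic cells in each library. Levels were set against all other barcodes of the same library, with 10 CPM added to both. Ccr7 was at least 60.1 times higher in every library, which follows from the choice of cells by Ccr7. Among genes that the rule did not use, Ccl22 was at least 42.7 times higher in every library. Il12b, a subunit of the cytokines IL-12 and IL-23, was at least 24.2 times higher. The calcium channel subunit Cacnb3 (20.5 times), Ccl17 (18.9 times), the amino acid oxidase Il4i1 (17.8 times), the Rab GTPase activator Tbc1d4 (15.4 times), the inhibitory ligand Cd200 (13.1 times) and the endocytic receptor Ly75 (11.6 times) followed, again as the smallest ratio over the 4 libraries. Among dendritic lineage genes, the growth factor receptor Flt3 stood at 124 and 68.1 CPM in Ccr7-rich cells of the LNP-Sirpa libraries and at 99.5 and 110.4 CPM in those of the control libraries. All other barcodes held from 1.17 to 5.08 CPM of Flt3. The transcription factor Zbtb46, a marker of conventional dendritic cells, stood at 122 and 77.4 CPM against 79.6 and 116 CPM, and at most 9.59 CPM in the other barcodes.

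Ccr7-poor cells held little RNA of these genes. Ccl22 stood at 5.25 and 1.21 CPM in those of the LNP-Sirpa libraries and at 8.48 and 11.7 CPM in those of the control libraries, and Flt3 at 13.1 and 0 CPM against 1.79 and 4.50 CPM. The summed level of the 5 markers Ccr7, Fscn1, Ccl22, Cd200 and Il15ra was 199 and 166 CPM against 152 and 185 CPM, of which Fscn1 itself was 165 and 155 CPM against 121 and 144 CPM. The same sum reached 4526 and 3382 CPM in Ccr7-rich cells of the LNP-Sirpa libraries and 6439 and 4457 CPM in those of the control libraries. Of this sum, Ccr7 was 2315 and 2092 CPM against 2642 and 1961 CPM, and Fscn1 809 and 272 CPM against 813 and 714 CPM. Ccr7 divided the members and both genes were used by the gate, so that part of the contrast was fixed in advance. The leading genes of Ccr7-poor cells included the membrane protein gene Tm4sf1, the actin-binding caldesmon gene Cald1, Crabp1, Ankrd1, Hmga2 and the collagen chaperone gene Serpinh1. The matrix protein gene Sparc stood at 2527 and 1476 CPM against 2826 and 3562 CPM in Ccr7-poor cells. The 5 fibroblast markers Col1a1, Col1a2, Col3a1, Dcn and Pdgfrb summed to 2473 and 423 CPM against 959 and 3676 CPM in Ccr7-poor cells, and to 147 and 24.8 CPM against 83.6 and 74.0 CPM in Ccr7-rich cells. Ccr7-poor cells are therefore called by the rule that found them and are given no dendritic name.

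Depth set the 2 kinds of member apart as well. The median member held 7358 UMIs among Ccr7-rich cells and 27780 UMIs among Ccr7-poor cells, so that a floor of 5 class II UMIs asked less of the deeper cells. Class II genes made up 136 and 183 of 10000 UMIs in Ccr7-rich cells of the LNP-Sirpa libraries and 127 and 142 in those of the control libraries. In Ccr7-poor cells the same genes made up 13.8 and 12.02 of 10000 UMIs against 10.2 and 17.6. Cells gated as T cells, which should have little class II RNA of their own, held 36.8 and 36.9 of 10000 against 25.9 and 21.7. The class II level of Ccr7-poor cells was thus below that of the T cell gate in all 4 libraries. Ptprc, which encodes the CD45 protein used for the sort, was at 48.3 and 49.7 CPM against 21.4 and 51.4 CPM in Ccr7-poor cells, and at 264 and 374 CPM against 165 and 225 CPM in Ccr7-rich cells. Members just inside the threshold resembled cells just outside it: 123 cells with exactly 3 UMIs of Ccr7 and Fscn1 held 8.70 to 41.8 CPM of Ccl22 and 1741 to 3009 CPM of Sparc over the libraries, and 234 cells with 2 UMIs that met every other condition held 4.97 to 23.5 CPM of Ccl22 and 1674 to 2684 CPM of Sparc.

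**Figure D2:**
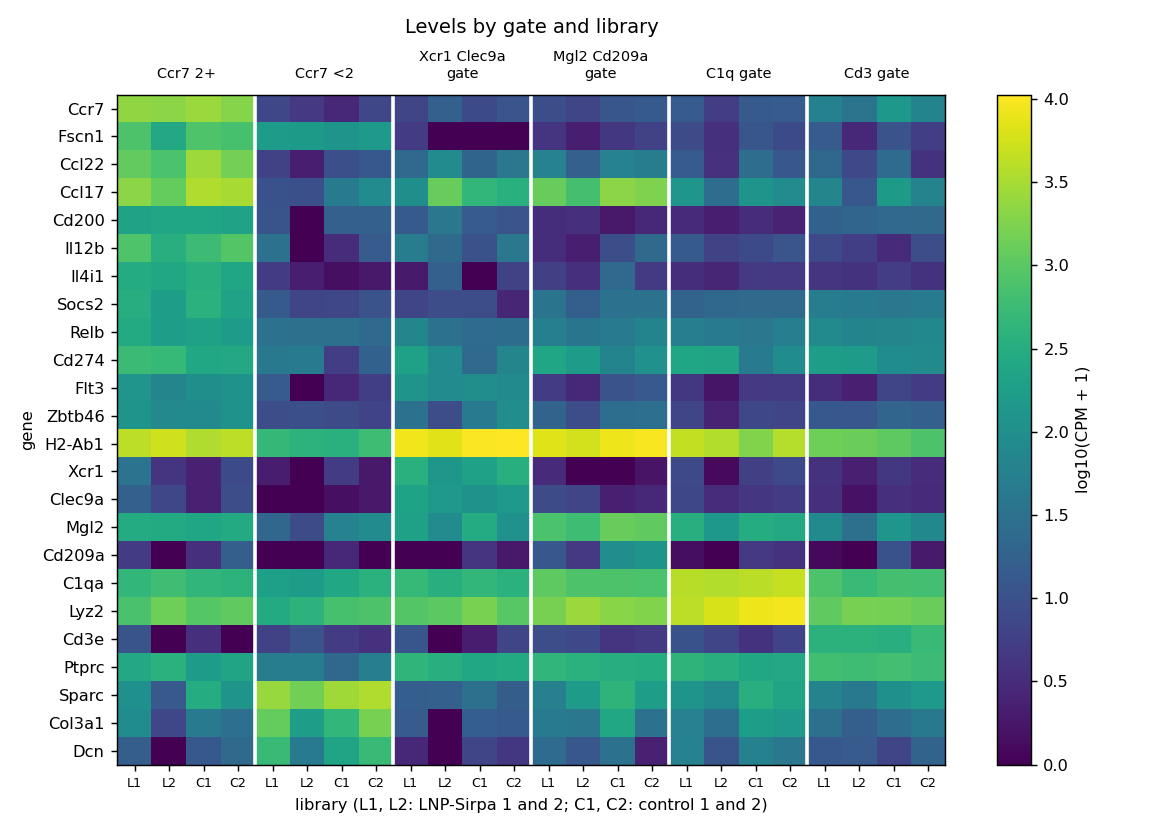
Level of marker genes (rows; colour, log10 of CPM plus 1) in Ccr7-rich cells, Ccr7-poor cells and 4 other gated classes, each by library (columns; L1 and L2, LNP-Sirpa 1 and 2; C1 and C2, control 1 and 2). Ccl22, Ccl17, Il12b and Flt3 are higher in the Ccr7-rich than in the Ccr7-poor columns, where Sparc is at 1476 CPM or more.

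Among Ccr7-rich cells, those with and without a detected Fscn1 UMI differed in other genes. The 225 cells with Fscn1 held 95.5 and 137 class II UMIs per 10000 in the LNP-Sirpa libraries and 72.2 and 54.4 in the control libraries. The 136 cells without Fscn1 held 206 and 205 against 285 and 281, beside 225 and 206 against 256 and 269 in cells gated by the type 1 dendritic genes Xcr1 and Clec9a. Cells with Fscn1 had at least 3.26 times more Batf3, a transcription factor gene, at least 3.20 times more Cacnb3 and at least 2.53 times more Socs2, an inhibitor of cytokine signalling, in every library. Cells without Fscn1 had at least 3.37 times more Ciita, the master activator of class II genes, at least 2.64 times more of the acid amidase gene Naaa and at least 2.09 times more Il1b, the gene of interleukin-1β. The 6 type 1 dendritic markers summed to 212 and 154.6 CPM in cells with Fscn1 of the LNP-Sirpa libraries and to 71.3 and 80.7 CPM in those of the control libraries. In cells without Fscn1 the sum was higher in every library, at 603.5 and 341.5 CPM against 357.9 and 462.0 CPM. Cells without Fscn1 made up 40.3% and 66.7% of Ccr7-rich cells in the LNP-Sirpa libraries, against 23.1% and 32.6% in the control libraries. The groups did not overlap, but both genes were used by the gate. The median depth of Ccr7-rich cells was 6459 and 6741.5 UMIs in the LNP-Sirpa libraries against 8485.5 and 8045 UMIs in the control libraries. The detection of Fscn1 was therefore not matched between the groups. Cells without Fscn1 had a median of 6615 and 7217.5 UMIs in the LNP-Sirpa libraries and 11004 and 10212 in the control libraries. Cells with Fscn1 had fewer in every library, at 6037 and 5629.5 UMIs against 7997.5 and 6826.5.

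Subset genes differed in level in Ccr7-rich cells. Xcr1 stood at 33.2 and 3.10 CPM in the LNP-Sirpa libraries and at 1.33 and 7.05 CPM in the control libraries, where the Xcr1 Clec9a gate held 360 and 136 CPM against 203 and 336 CPM. The type 2 gene Cd209a was at 4.25 and 0 CPM against 2.65 and 15.3 CPM. Mgl2, a lectin gene of type 2 dendritic cells and macrophages, was detected at 298 and 291 CPM against 243 and 292 CPM, with 777 and 600 CPM against 1218 and 1115 CPM in the gate built on Mgl2, Cd209a and Clec10a. In Ccr7-rich cells without Fscn1 it reached 543.8 and 273.2 CPM against 710.5 and 582.8 CPM.

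The share of members among all barcodes did not separate the groups. Members made up 2.15% (95% Wilson interval 1.88 to 2.44) and 0.833% (0.665 to 1.04) of barcodes in LNP-Sirpa libraries 1 and 2, against 1.82% (1.55 to 2.15) and 1.24% (1.05 to 1.47) in control libraries 1 and 2. The 2 LNP-Sirpa libraries lay on either side of both controls. The mean was 1.49% ± 0.928 in the LNP-Sirpa libraries and 1.53% ± 0.413 in the control libraries (SD, n = 2 each), a difference of -0.0429 percentage points (exact permutation test, two-sided p = 1.0). The difference was -0.699 percentage points without LNP-Sirpa library 1 and stayed below 0 without control library 2, but was 0.614 without LNP-Sirpa library 2 and 0.249 without control library 1. Ccr7-rich cells made up 1.44% and 0.466% of barcodes in the LNP-Sirpa libraries and 1.04% and 0.845% in the control libraries. Intervals cover counting error only.

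The comparison of treated with control tumours asked which genes of the gated cells differed after LNP-Sirpa. Across the 569 members, 35 genes rose and 5 fell, and 20 of the 35 belonged to the type I interferon or interferon γ gene lists described below. Rsad2, the antiviral enzyme viperin, had the smallest adjusted p of them: it stood at 209 and 159 CPM in LNP-Sirpa libraries 1 and 2, against 11.4 and 15.3 CPM in control libraries 1 and 2. In edgeR's quasi-likelihood test with Benjamini-Hochberg adjustment over 10862 genes the calls made up 0.368% of the genes tested (0.322% higher and 0.046% lower in LNP-Sirpa), and 801 genes had an unadjusted p under 0.05. Calls rested unevenly on the libraries, with 7 genes higher without control library 1, 75 without control library 2, 37 without LNP-Sirpa library 1 and 210 without LNP-Sirpa library 2. For the genes lower in LNP-Sirpa the 4 counts, in the same order, were 32, 28, 9 and 22. Of the 15 risen genes that the naming rule chose, 12 no longer passed without control library 1 (highest adjusted p 0.249), 3 without LNP-Sirpa library 1 and 1 without control library 2. None of the 15 changed sign. In simulated counts this test recovered 18.4% of changes of log2 1, so a gene near that size that did not pass may still differ.

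The type I interferon list holds genes switched on by the receptor for interferon α and β. Of its 29 fitted genes 13 rose and none fell, with a median log2 change of 2.82 against 0.005 for all genes tested. Rsad2 rose by 3.83 ± 0.307 (adjusted p = 0.00470), and Ifit1, whose product binds viral RNA, rose by 3.19 ± 0.384 (adjusted p = 0.0185). Oasl2, of the oligoadenylate synthetase family, stood at 193 and 76.7 CPM in the LNP-Sirpa libraries and at 11.02 and 17.3 CPM in the control libraries (3.30 ± 0.459, adjusted p = 0.0236). Zbp1, a sensor of left-handed nucleic acids, stood at 232 and 115 CPM against 20.7 and 28.6 CPM (2.85 ± 0.368, adjusted p = 0.0198). For Rsad2, Ifit1, Oasl2 and Zbp1 the lowest LNP-Sirpa library lay above the highest control, as it did for all 29 genes of the list; 16.6% of all genes tested were higher in both LNP-Sirpa libraries than in both controls, and 18.7% were lower.

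Other members of the list that passed were Bst2, the membrane tether tetherin, Xaf1, Ifih1, Ifit2, Oas3, Ifitm3, Cmpk2, Rtp4 and Ifi205. Bst2 stood at 895 and 386 CPM in the LNP-Sirpa libraries and at 103 and 97.4 CPM in the control libraries (2.70 ± 0.370, adjusted p = 0.0198). The cytosolic RNA sensor gene Ifih1 stood at 82.1 and 90.6 CPM against 23.7 and 20.4 CPM (1.99 ± 0.267, adjusted p = 0.0198), and was the single gene of 16 in the nucleic acid and microbial sensing list that passed. Isg15, a ubiquitin-like protein, had a log2 difference of 3.08 ± 0.575 that did not pass (adjusted p = 0.180), with 1527 and 557 CPM in the LNP-Sirpa libraries and 81.8 and 167 CPM in the control libraries. On the CPM scale the 2 LNP-Sirpa libraries lay further from each other than the lower of them lay from either control. Genes of near-identical copies such as Ifit3 and Ifit3b, the Oas and Gbp families, Tgtp1 and Tgtp2, and Apol9a and Apol9b may share reads, so the division of counts within such pairs is uncertain.

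The promoters of Isg15, Rsad2 and Cxcl10 are shown because interferon-induced genes were the group that moved together, with that of Ccl22, a defining gene of these cells, beside them. Each is the 250 bases before the annotated start on the gene's own strand, from RefSeq on GRCm38.p6, and the deposited counts carry symbols from an alignment to another build, so no coordinates were joined to them. Isg15 lies at chr4:156200819-156201068 (minus strand), Rsad2 at chr12:26456453-26456702 (minus strand), Cxcl10 at chr5:92348890-92349139 (minus strand) and Ccl22 at chr8:94745434-94745683 (plus strand). Capitals mark matches on either strand to an interferon-stimulated response element, spelled as GAAA, 2 bases of any kind and GAAA, and in Isg15 3 matches overlap.
Isg15: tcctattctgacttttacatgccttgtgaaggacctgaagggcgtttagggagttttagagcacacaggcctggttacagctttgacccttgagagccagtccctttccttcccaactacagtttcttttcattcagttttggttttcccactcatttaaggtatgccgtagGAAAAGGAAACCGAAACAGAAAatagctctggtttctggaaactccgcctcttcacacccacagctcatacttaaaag
Rsad2: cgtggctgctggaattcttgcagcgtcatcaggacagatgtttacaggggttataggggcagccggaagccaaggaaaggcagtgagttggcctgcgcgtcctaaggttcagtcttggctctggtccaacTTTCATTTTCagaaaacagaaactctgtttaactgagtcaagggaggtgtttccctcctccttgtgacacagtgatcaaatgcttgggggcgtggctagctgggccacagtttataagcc
Cxcl10: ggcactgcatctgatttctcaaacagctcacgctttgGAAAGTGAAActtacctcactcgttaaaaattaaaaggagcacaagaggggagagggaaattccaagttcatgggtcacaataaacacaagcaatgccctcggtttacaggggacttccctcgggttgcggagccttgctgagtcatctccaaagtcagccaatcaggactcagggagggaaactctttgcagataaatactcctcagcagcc
Ccl22: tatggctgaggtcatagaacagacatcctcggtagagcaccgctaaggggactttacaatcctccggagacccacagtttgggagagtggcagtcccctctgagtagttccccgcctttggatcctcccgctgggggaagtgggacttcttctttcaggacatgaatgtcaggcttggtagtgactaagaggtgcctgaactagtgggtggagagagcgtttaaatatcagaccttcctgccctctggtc
These letters occurred in 14 of the 24 type I interferon genes with a promoter in the table (58.3%), in 305 of 8595 tested genes with one (3.55%) and in 936 of all 27025 promoters (3.46%). They also occurred in 11 of 15 interferon γ genes (73.3%) and in 13 of 27 risen genes (48.15%) with a promoter. Only 24 of 29 type I, 15 of 24 interferon γ and 27 of 35 risen genes had one. These are too few to compare the shares of the 3 sets. The match in Rsad2 lies 120 bases and that in Cxcl10 213 bases before the start, and a match is a description of the letters, not evidence of binding.

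The interferon γ list holds genes driven mainly by the interferon of T and natural killer cells, and 7 of its 24 fitted genes rose with none that fell (median log2 change 2.12). Igtp, an immunity-related GTPase, stood at 193 and 136 CPM in the LNP-Sirpa libraries and at 17.4 and 29.1 CPM in the control libraries (2.87 ± 0.334, adjusted p = 0.0178). Iigp1, of the same family, stood at 235 and 138 CPM against 32.1 and 37.2 CPM (2.46 ± 0.309, adjusted p = 0.0198). The guanylate-binding protein genes Gbp5 (2.13 ± 0.285) and Gbp7 (2.30 ± 0.362), together with Gbp2 and Tgtp1, rose as well. The list's remaining call was a chemokine, Cxcl10.

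Cxcl10, a ligand of the T cell receptor CXCR3, stood at 430.1 and 448 CPM in the LNP-Sirpa libraries and at 152 and 106 CPM in the control libraries (1.80 ± 0.263, adjusted p = 0.0245). It was the one gene of 16 fitted chemokines that passed. Cxcl9, which binds the same receptor, stood at 860 and 409 CPM against 111 and 182 CPM, a log2 difference of 2.14 ± 0.387 that did not pass over all members (adjusted p = 0.0843). In the stricter gate with a UMI of both Ccr7 and Fscn1, described below, Cxcl9 passed and Cxcl10 did not. After each cell was thinned to 2000 UMIs, at least 1 Cxcl9 UMI was found in 71.2% and 65.0% of Ccr7-rich cells of the LNP-Sirpa libraries, against 17.1% and 19.3% in the control libraries. Cells gated as T cells, a measure of free RNA in the droplets, gave 41.0% and 31.3% against 3.18% and 14.7% at the same depth. Thinning left out 17 and 2 against 2 and 4 Ccr7-rich cells, and before thinning the shares in the others were 87.9% and 82.5% against 34.2% and 44.3%.

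The other 15 of the 35 risen genes stood in no interferon list and are named after their values were seen, apart from Ifi204 and Fcgr1, which the naming rule chose. They were Acod1, which makes itaconate, Nos2, the inducible nitric oxide synthase, Fcgr1, the high-affinity IgG receptor CD64, Fpr2, a formyl peptide receptor, the protease inhibitor gene Slpi, the stress cytokine gene Gdf15, the ubiquitin-like gene Ubd, Ifi204, Slfn1, Ly6c2, Ly6i, Apol9a, Apol9b, Gm4841 and Gm4951. Fcgr1 stood at 61.0 and 48.8 CPM in the LNP-Sirpa libraries and at 11.4 and 17.3 CPM in the control libraries (1.99 ± 0.316, adjusted p = 0.0373), and was the 1 gene of 18 in the phagocytosis and antigen capture list that passed. Nos2 stood at 26.6 and 54.9 CPM against 3.34 and 3.06 CPM (3.63 ± 0.486, adjusted p = 0.0198). Standing in no list here does not mean that a gene is not induced by interferon. Several of these genes are also known from macrophages and monocytes. The 9 macrophage markers summed to 1254 and 1278 CPM in members of the LNP-Sirpa libraries and to 1332 and 1914 CPM in those of the control libraries. The 7 monocyte markers summed to 899 and 980 CPM against 945 and 1141 CPM. The gate itself limits macrophage RNA, and the part of either cell type in these rises was not tested.

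The 5 genes that fell were Fabp4, Flt1, Rhox5, S100a16 and Selenop, none of which reached the mean of 50 CPM that the naming rule asked for. Fabp4, a fatty acid binding protein, stood at 5.51 and 4.36 CPM in the LNP-Sirpa libraries and at 92.5 and 49.5 CPM in the control libraries (-3.77 ± 0.408, adjusted p = 0.0178). Selenop, a secreted selenium carrier, stood at 9.73 and 5.23 CPM against 56.1 and 71.4 CPM (-2.95 ± 0.347, adjusted p = 0.0178). Flt1, Rhox5 and S100a16 were too low to be fitted in Ccr7-rich cells, and Selenop was at 12.8 and 3.10 CPM against 55.7 and 62.2 CPM there. Among genes of at least 50 CPM on average none fell, and the 5 with the smallest p in that direction were Stab1, Ctla2a, Cavin2, Cirbp and Ccl22. Stab1, a scavenger receptor, stood at 40.5 and 29.6 CPM in the LNP-Sirpa libraries and at 93.2 and 67.3 CPM in the control libraries (-1.15 ± 0.284, adjusted p = 0.205), and Cirbp, a cold-inducible RNA-binding protein, at 55.8 and 62.7 CPM against 107 and 168 CPM (-1.19 ± 0.302, adjusted p = 0.222). Ctla2a and Cavin2 had log2 differences of -1.67 ± 0.405 and -1.49 ± 0.375 (adjusted p 0.208 and 0.222), and Ctla2a overlapped between the groups in Ccr7-rich cells.

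Both kinds of member contributed to the sums. Ccr7-rich cells supplied 38.2% and 28.2% of the members' UMIs in the LNP-Sirpa libraries and 25.2% and 43.4% in the control libraries. All 30 risen genes with enough counts to be fitted in Ccr7-rich cells alone were higher there in both LNP-Sirpa libraries than in both controls, as were 27.3% of all 6916 genes fitted in those cells. These cells are part of the members that were tested, so this is a description of where the difference lay and not a separate test. Rsad2 stood at 468 and 436 CPM in Ccr7-rich cells of the LNP-Sirpa libraries and at 37.1 and 23.5 CPM in those of the control libraries (log2 difference 3.79 ± 0.299), and at 49.3 and 49.7 CPM against 2.68 and 9.01 CPM in Ccr7-poor cells. Bst2 stood at 416 and 220 CPM against 122 and 90.4 CPM in Ccr7-rich cells and at 1191 and 451 CPM against 96.0 and 103 CPM in Ccr7-poor cells. The median log2 difference of the type I interferon list was 2.55 in Ccr7-rich and 3.05 in Ccr7-poor cells, and that of the interferon γ list 1.70 and 2.23.

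**Figure D3:**
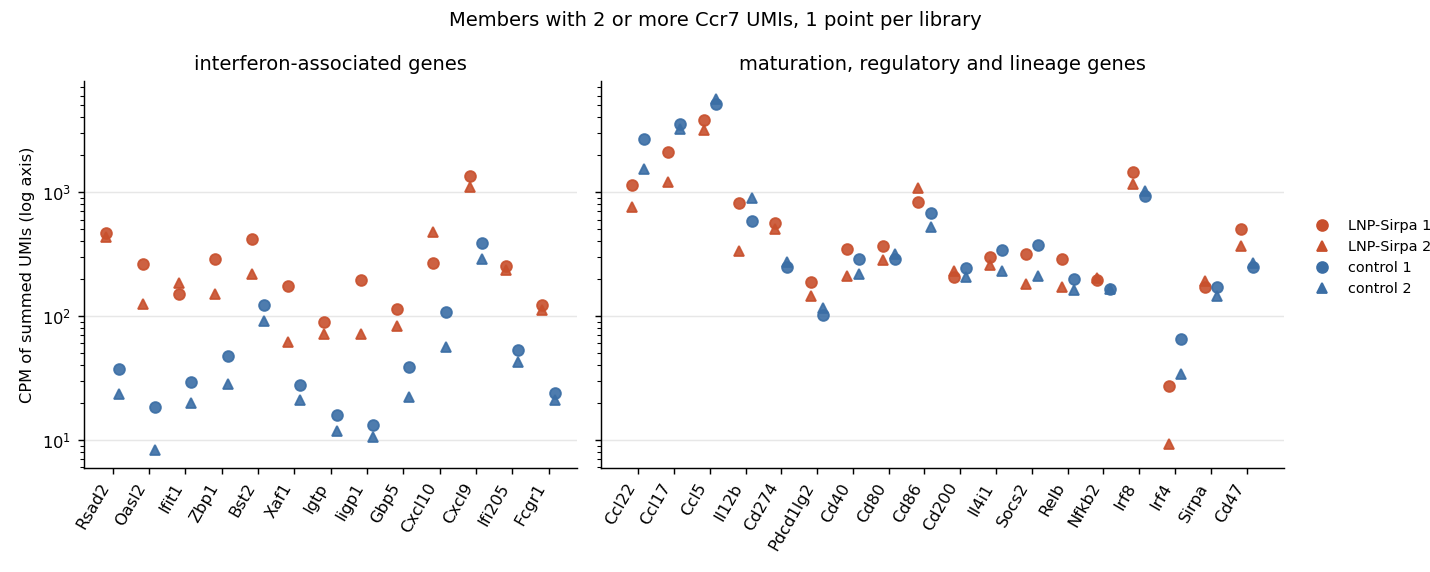
CPM of summed UMIs (y axis, log scale) in Ccr7-rich cells, 1 point per library, for interferon-associated genes (left) and maturation, regulatory and lineage genes (right), with LNP-Sirpa left of control for each gene. Rsad2, at 468 and 436 CPM against 37.1 and 23.5 CPM, and the other interferon-associated genes lie higher in both LNP-Sirpa libraries, while Ccl22, Ccl17 and Ccl5 lie lower.

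A stricter gate planned from the start asked for at least 1 UMI of both Ccr7 and Fscn1 and kept 251 cells, of which 225 were Ccr7-rich. In it 39 genes rose and 9 fell of 6886 tested (0.697%, with 0.566% higher and 0.131% lower, by edgeR), and 20 of these 48 genes were also called over all members, which is 41.67% of the stricter calls and 50% of the calls over all members. Of the type I interferon list 16 of 24 fitted genes rose, and of the interferon γ list 6 of 19. Ifit1 rose by 6.42 ± 0.780 on the log2 scale (adjusted p = 0.00500), Ifi205 by 3.63 ± 0.479 (adjusted p = 0.00717) and Rsad2 by 2.61 ± 0.432 (adjusted p = 0.0251). The size for Ifit1 rests on controls near the floor. In Ccr7-rich cells with Fscn1 it stood at 97.2 and 29.0 CPM in the LNP-Sirpa libraries and at 1.78 and 0 CPM in the control libraries. Cxcl9 rose by 3.26 (adjusted p = 0.00500), and Cxcl10 had a log2 difference of 1.57 that did not pass (adjusted p = 0.200). LNP-Sirpa library 2 supplied only 17 of the cells, 14 of them Ccr7-rich, and its 3 Ccr7-poor cells held 54317 of its 157840 UMIs in this gate. Ccr7-poor cells held 232341 of 972845 UMIs in LNP-Sirpa library 1. In control libraries 1 and 2 they held 138222 of 699258 and 162919 of 683470. Cdc20, an activator of mitotic exit, fell in this gate, where the median log2 difference of the 22 fitted cell cycle genes was -0.82, with 14 of them lower in both LNP-Sirpa libraries, as were 18.1% of all genes fitted (22.3% were higher in both). Over all members no cell cycle gene passed (median log2 difference -0.14).

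**Figure D4:**
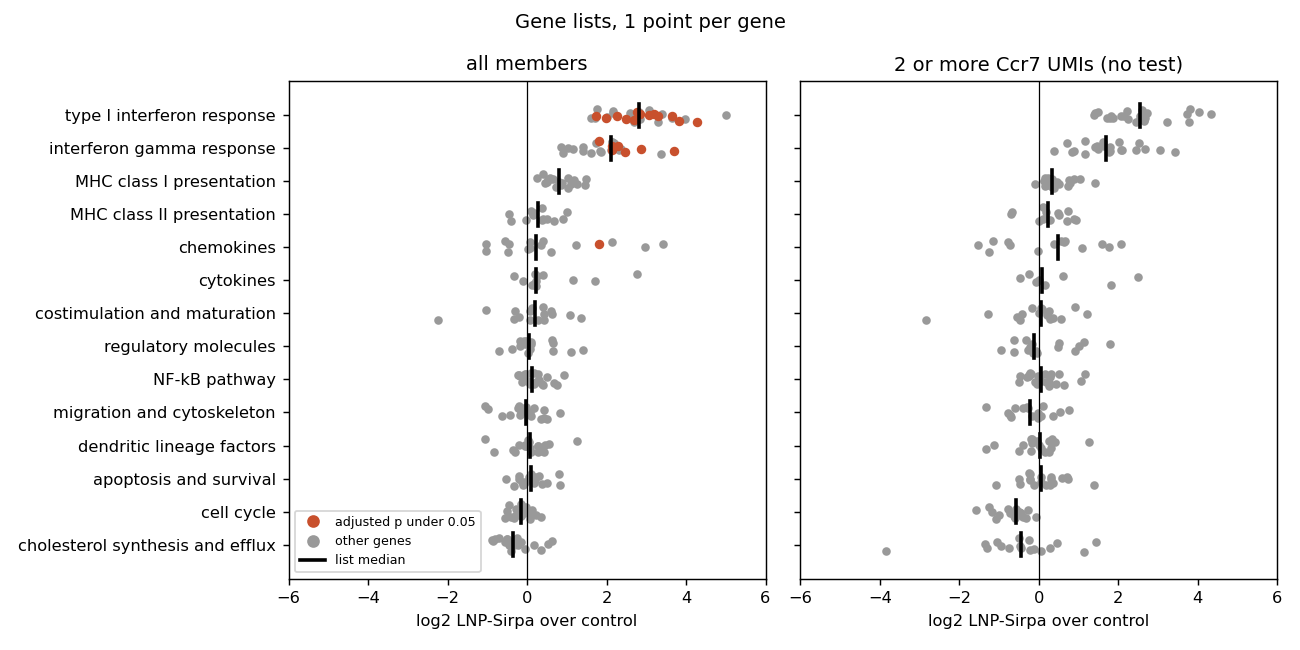
Log2 difference, LNP-Sirpa over control, of each gene (point) of 14 gene lists (rows) over all members (left) and in Ccr7-rich cells (right, no test), with the list median as a black bar and genes with an adjusted p under 0.05 in red. The medians of the type I interferon list (2.82 and 2.55) and of the interferon γ list (2.12 and 1.70) stand to the right of the other lists.

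The chemokines that define mature dendritic cells did not pass. Ccl22 stood at 439 and 216 CPM in members of the LNP-Sirpa libraries and at 686 and 676 CPM in those of the control libraries (-1.03 ± 0.313, adjusted p = 0.380). In Ccr7-rich cells the same gene was at 1143 and 764 CPM against 2698 and 1540 CPM, so its 2 groups did not overlap. Thinned to 2000 UMIs, 65.9% and 42.5% of Ccr7-rich cells held a Ccl22 UMI in the LNP-Sirpa libraries and 85.5% and 73.9% in the control libraries; the T cell gate held 1.57% and 0.204% against 3.18% and 0.532%. Before thinning the shares in Ccr7-rich cells were 79.6% and 65.0% against 92.1% and 86.4%. Ccl17, the other CCR4 ligand, was at 2099 and 1198 CPM in Ccr7-rich cells of the LNP-Sirpa libraries and at 3546 and 3203 CPM in those of the control libraries (over all members -1.03 ± 0.395, adjusted p = 0.605). The chemokine gene Ccl5 stood at 3844 and 3175 CPM in Ccr7-rich cells against 5112 and 5674 CPM (over all members -0.55 ± 0.332, adjusted p = 0.850). Of the 14 chemokines fitted in Ccr7-rich cells, 6 were higher and 5 lower in both LNP-Sirpa libraries, beside 27.3% and 16.4% of all genes fitted there, with Ccl7 at 276 and 266 CPM against 117 and 121 CPM among the higher ones.

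No gene of the 16 fitted regulatory molecules passed (median log2 difference 0.05). Cd274, which encodes PD-L1, stood at 240.0 and 172 CPM in members of the LNP-Sirpa libraries and at 66.5 and 128 CPM in those of the control libraries (1.11 ± 0.342, adjusted p = 0.381), and at 563 and 501 CPM against 251 and 272 CPM in Ccr7-rich cells. Pdcd1lg2, which encodes PD-L2, was at 187 and 145 CPM against 102 and 115 CPM in Ccr7-rich cells (over all members 0.64 ± 0.367, adjusted p = 0.840). Both PD-1 ligands were thus higher in Ccr7-rich cells of each LNP-Sirpa library, without passing over all members. Il4i1 stood at 299 and 260 CPM in Ccr7-rich cells of the LNP-Sirpa libraries and at 341 and 231 CPM in those of the control libraries, Cd200 at 206 and 232 CPM against 244 and 207 CPM, and Socs2 at 316 and 183 CPM against 377 and 211 CPM. For these 3 genes the groups overlapped. Socs1, an inhibitor of interferon signalling, was at 21.3 and 21.7 CPM in Ccr7-rich cells against 2.65 and 8.22 CPM (over all members 1.41 ± 0.432, adjusted p = 0.380).

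Costimulation and maturation genes did not pass either, with 0 of 16 fitted genes called in either direction and a median log2 difference of 0.20. Cd40, which receives help from T cells, stood at 349 and 210 CPM in Ccr7-rich cells of the LNP-Sirpa libraries and at 291 and 218 CPM in those of the control libraries. Cd80, a ligand of CD28, stood at 367 and 282 CPM against 288 and 318 CPM, and its partner Cd86 at 825 and 1074 CPM against 674 and 526 CPM. Over all members the log2 differences were 0.28 ± 0.335 for Cd40, 0.12 ± 0.374 for Cd80 and 0.61 ± 0.244 for Cd86 (adjusted p from 0.609 to 0.995). Cd40 and Cd80 overlapped between the groups, and Cd86 was higher in both LNP-Sirpa libraries. Relb, the NF-κB subunit tied to dendritic maturation, was at 287 and 170 CPM against 198 and 163 CPM, and Nfkb2 at 194 and 201 CPM against 165 and 166 CPM, within an NF-κB list of 24 genes with no call (median 0.13). Among cytokines, with 0 of 12 called, Il12b stood at 818 and 334 CPM in Ccr7-rich cells of the LNP-Sirpa libraries and at 581 and 897 CPM in those of the control libraries. Thinned to 2000 UMIs, 40.2% and 10.0% of Ccr7-rich cells held an Il12b UMI against 38.2% and 42.1%, so LNP-Sirpa library 2 was low and library 1 was within the controls' range. Il15, which sustains memory T and natural killer cells, was at 51.0 and 21.7 CPM against 38.5 and 38.8 CPM, and its carrier receptor gene Il15ra at 53.6 and 21.7 CPM against 41.1 and 35.2 CPM.

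Neither lineage factors nor antigen presentation genes passed over all members. None of 20 fitted dendritic lineage factors passed (median log2 difference 0.07). Irf8, needed by type 1 dendritic cells, was at 1461 and 1164 CPM in Ccr7-rich cells of the LNP-Sirpa libraries and at 923 and 1027 CPM in those of the control libraries, and Irf4, which promotes migration and type 2 dendritic cells, at 27.2 and 9.28 CPM against 65.0 and 34.1 CPM. Batf3 stood at 109 and 52.6 CPM against 127 and 82.2 CPM. Of 14 class II presentation genes none passed, and of 19 class I presentation genes none passed although all 19 had a log2 difference above 0 over all members (median 0.80). The proteasome subunit gene Psmb10 came nearest, at 446 and 330.2 CPM against 134 and 154 CPM (1.45 ± 0.254, adjusted p = 0.0643). In Ccr7-rich cells the class I median was 0.34.

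Sirpa itself, the gene named by the treatment and encoding a receptor that restrains phagocytosis, did not pass in these cells. It stood at 101 and 80.2 CPM in members of the LNP-Sirpa libraries and at 110.2 and 94.3 CPM in those of the control libraries (-0.14 ± 0.248, adjusted p = 0.986), and at 170.0 and 192 CPM against 170 and 144 CPM in Ccr7-rich cells. Thinned to 2000 UMIs, 31.8% and 25% of Ccr7-rich cells held a Sirpa UMI against 19.7% and 27.3%, with 19.7% and 17.5% against 19.4% and 18.3% in the T cell gate, so in part of the libraries the share was near that of free RNA. Cd47, its ligand, was at 502 and 365 CPM in Ccr7-rich cells against 251 and 269 CPM (over all members 0.59 ± 0.303, adjusted p = 0.780). None of the 10 fitted genes of the SIRPα-CD47 list passed. RNA levels do not measure the degradation of the SIRPα protein.

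RNA of other cell types was present in Ccr7-rich cells, in part with the group and in part in LNP-Sirpa library 1. The 6 neutrophil markers summed to 909 and 21.7 CPM in the LNP-Sirpa libraries and to 11.9 and 16.4 CPM in the control libraries, and the 5 mast cell and basophil markers to 288 and 6.19 CPM against 10.6 and 0 CPM. In LNP-Sirpa library 1, 3 Ccr7-rich cells held at least 10 UMIs of the mast cell proteases, 1 of them 2770 of the library's 3455. All 7 monocyte markers were detected, with a sum of 1354 and 1832 CPM against 1064 and 1228 CPM, and all 9 macrophage markers, with 2056 and 2711 CPM against 1874 and 2191 CPM. The 8 natural killer and innate lymphoid markers summed to 517 and 724 CPM against 247 and 424 CPM. That sum includes Il7r, which also marks part of the mature dendritic cells and stood at 194 and 272 CPM against 223 and 107 CPM. It is therefore not a measure of other cells alone. The monocyte and natural killer sums were thus higher in both LNP-Sirpa libraries, and the macrophage sums overlapped. Their part in the differences above was not tested. With the highest doublet scores left out, 33 genes rose and 6 fell over all members. That filter kept 210 of 222 and 71 of 75 members in the LNP-Sirpa libraries. In the control libraries it kept 129 of 137 and 130 of 135, and it does not remove free RNA.

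Whether the treatment difference was particular to these cells was tested against 2 other gates by an interaction term in edgeR. In simulated counts the interaction with macrophages recovered 1% of differences of log2 1 and 36% of log2 2. A gene that did not pass is therefore not shown to respond alike in both gates. Against macrophages (C1qa, C1qb and C1qc of at least 10 UMIs together), 51 of 15494 genes differed in their response (0.329%), 16 with a more positive difference in the members (0.103%) and 35 with a more negative one (0.226%). They included 1 of 29 type I interferon genes, Bst2, and 2 of 25 interferon γ genes, Gbp7 and Igtp. Of the others, Isg15 differed by 0.06 (adjusted p = 1.0), Rsad2 by 0.73 (adjusted p = 0.477) and Cxcl9 by -0.39 (adjusted p = 0.997). Bst2 differed by 1.38 ± 0.212 (adjusted p = 0.000214) and Gbp7 by 1.23 ± 0.233 (adjusted p = 0.00458), but the Bst2 difference was 0.30 ± 0.272 with Ccr7-rich cells in place of all members. Leaving out single libraries gave from 17 genes (without LNP-Sirpa library 2) to 164 (without LNP-Sirpa library 1), with 99 without control library 1 and 104 without control library 2.

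Ccl5 had the most negative difference from macrophages among genes of at least 50 CPM on average. In macrophages it stood at 619 and 413 CPM in the LNP-Sirpa libraries and at 77.6 and 189 CPM in the control libraries, and in members at 1528 and 1039 CPM against 1293 and 2497 CPM. The difference of the 2 log2 changes was -2.69 ± 0.194 (adjusted p = 4.75e-12), and -2.86 ± 0.205 with Ccr7-rich cells. Pdcd1lg2 also had a more negative difference in the members, at 36.2 and 24.3 CPM against 7.82 and 8.41 CPM in macrophages and at 73.6 and 41.8 CPM against 27.4 and 49.96 CPM in members (-1.37 ± 0.276, adjusted p = 0.00919). For Cd274 the difference between the gates was -0.80 ± 0.224 and did not pass (adjusted p = 0.136). AW112010, an interferon-inducible transcript, differed by -1.92 ± 0.231 (adjusted p = 0.000102), being at 592 and 306 CPM against 272 and 402 CPM in members and at 1269 and 1002 CPM against 187 and 329 CPM in macrophages. Ly6a, the surface protein Sca-1, differed by -1.83 ± 0.195 over all members, and by 0.61 ± 0.239 with Ccr7-rich cells, where it stood at 1070 and 1232 CPM against 103 and 75.1 CPM, so its sign depended on the Ccr7-poor cells.

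**Figure D5:**
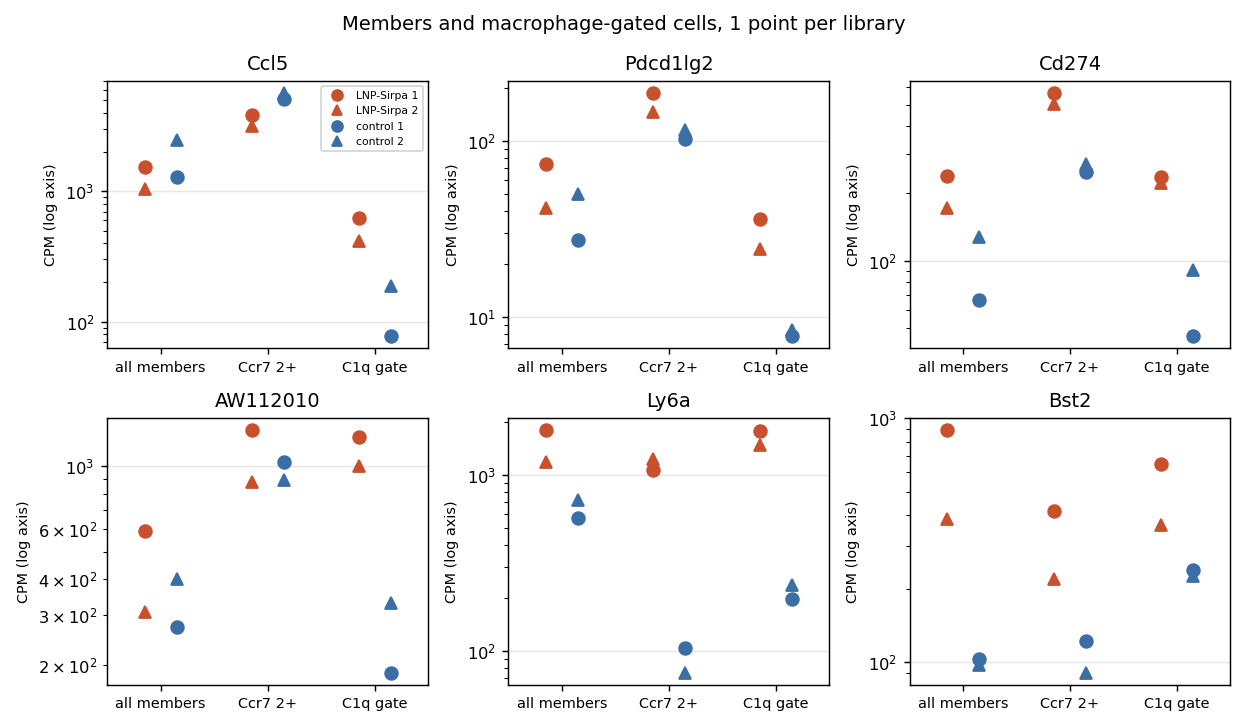
CPM (y axes, log scale) of 6 genes in all members, Ccr7-rich cells and the C1q macrophage gate, 1 point per library, LNP-Sirpa left of control. Ccl5 is higher in macrophages of both LNP-Sirpa libraries (619 and 413 against 77.6 and 189 CPM) and lower in Ccr7-rich cells of both (3844 and 3175 against 5112 and 5674 CPM).

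Against the Xcr1 Clec9a gate, 46 of 9723 genes differed in their response (0.473%), 10 with a more positive (0.103%) and 36 with a more negative difference (0.37%) in the members. The more positive calls numbered 0 with cells thinned to 2000 UMIs, 1 by DESeq2, 1 without control library 1, 2 without LNP-Sirpa library 1 and 3 without LNP-Sirpa library 2. That gate held 90 and 11 cells in the LNP-Sirpa libraries and 63 and 93 in the control libraries, so its values in LNP-Sirpa library 2 rest on few cells, and 18 genes were called without that library, 16 without LNP-Sirpa library 1. Ifi205, of the PYHIN family of DNA-binding proteins, differed by 1.85 ± 0.343 (adjusted p = 3.93e-05): it stood at 130.4 and 78.4 CPM against 20.04 and 24.98 CPM in members and at 544 and 320 CPM against 280 and 331 CPM in the type 1 gate. Naaa, a type 1 dendritic gene, differed by 1.15 ± 0.292 (adjusted p = 0.0211), at 68.4 and 72.3 CPM against 41.7 and 47.4 CPM in members and at 935 and 839 CPM against 1024 and 1259 CPM in the type 1 gate. Il7r, which marks part of the mature dendritic cells, differed by -3.82 ± 0.614 (adjusted p = 7.11e-07), at 75.6 and 88.0 CPM against 57.8 and 48.4 CPM in members and at 44.1 and 136 CPM against 2.01 and 3.45 CPM in the type 1 gate. In Ccr7-rich cells Il7r stood at 194 and 272 CPM against 223 and 107 CPM, and the groups overlapped. Of 28 type I interferon genes tested in this interaction, Ifi205 alone passed.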

How the data were processed

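The deposited files held UMI counts per gene and droplet barcode for 4 cDNA libraries, made with the DNBelab C droplet system and, per the labels, sequenced on a DNBSEQ-T7. The submitters' processing notes name STAR 2.5.1b and the build GRCm39, and PISA 1.0 made the count matrices per the file headers. No other step is given in the sources used here. The labels place all libraries in 1 batch, and 4 oligo libraries were not analysed here.

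The gate was applied to the deposited counts with no further filter on cells, and doublets were left out only in an alternative (cells with at least 300 genes, at most 15% mitochondrial UMIs and a doublet score up to the 95th percentile of their library). UMIs were summed per library and gate. edgeR 4.0.16 (filterByExpr, TMM, quasi-likelihood, robust) under R 4.3.3 tested LNP-Sirpa against control, and an interaction with 2 other gates; p-values were adjusted by Benjamini-Hochberg, threshold 0.05. DESeq2 1.42.0 was an alternative. Shares of cells were compared by exact permutation over libraries (scipy 1.17.1), where the smallest p is 0.3333. Scripts were tested on simulated counts with known changes. The test over all members recovered 18.4% of changes of log2 1 and 87.8% of log2 2, and called 23 unchanged genes. The interaction with macrophages recovered 1% and 36%, and called 1 unchanged gene. Genes that did not pass may therefore still differ, and some calls may be false.

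Named genes were Sirpa, Cd47, the markers, a fixed set of core genes, up to 10 called rises and 10 called falls of the largest size (averaging 50 CPM or more), up to 3 called genes per list and the 5 largest interaction differences either way. The members, the 20 gene lists and these rules were chosen with earlier results of these data known. Promoters came from RefSeq tables of GRCm38.p6.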

Additional observations from a re-analysis of the deposited data

Results flagged for a closer look

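The values below are differences between the treatment response of the gated cells and that of another gate, on the log2 scale, each from an interaction term in edgeR that passed after adjustment. Gates of the same library share its depth and free RNA, and no explanation was tested.

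Against the Xcr1 Clec9a gate the response of the members was more positive for Igtp by 2.16, for Ifi205 by 1.85, for the transporter gene Slco3a1 by 1.80, for the growth arrest gene Gadd45g by 1.80 and for Naaa by 1.15. Igtp stood at 193 and 136 CPM in members of the LNP-Sirpa libraries and at 17.4 and 29.1 CPM in those of the control libraries, with 65.7 and 7.99 CPM against 23.1 and 29.3 CPM in the type 1 gate. Gadd45g stood at 177 and 158 CPM against 130 and 144 CPM in members and at 53.9 and 15.97 CPM against 109.6 and 116 CPM in the type 1 gate. More negative in the members were Inhba, an activin subunit (-5.12), Il7r (-3.82), the arginine transporter gene Slc7a2 (-3.74), the protease inhibitor gene Timp1 (-3.38), Ctla2a (-3.01) and Ly6a (-2.98). With Ccr7-rich cells in place of all members the difference was only -0.31 ± 0.857 for Ctla2a and -0.71 ± 0.287 for Ly6a. For Inhba, Il7r, Slc7a2 and Timp1 it then lay between -4.60 and -3.78. For Inhba, Il7r, Slc7a2 and Timp1 the type 1 gate was near the floor in the controls: Inhba stood at 120 and 71.9 CPM in its LNP-Sirpa libraries and at 6.03 and 0 CPM in its control libraries. Ly6a stood at 1033 and 966 CPM against 47.3 and 50.9 CPM in the type 1 gate, and Ctla2a at 52.0 and 7.99 CPM against 12.1 and 12.95 CPM. LNP-Sirpa library 2 held 11 cells of that gate.

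Against macrophages the response was more positive in members for the mast cell protease gene Mcpt2 by 3.42, for the growth factor binding genes Igfbp4 by 1.68 and Igfbp6 by 1.39, for Bst2 by 1.38 and for Gbp7 by 1.23. Mcpt2 stood at 330.2 and 0 CPM in members of the LNP-Sirpa libraries and at 3.01 and 0.510 CPM in those of the control libraries, so the value rests on LNP-Sirpa library 1. Igfbp6 differed by -0.23 with Ccr7-rich cells in place of all members. More negative were Ccl5 (-2.69), AW112010 (-1.92), the ubiquitin ligase gene Fbxl5 (-1.88), Ly6a (-1.83), the integrin gene Itgb7 (-1.80) and Pdcd1lg2 (-1.37).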

How the results depend on the processing

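Genes higher in LNP-Sirpa numbered 97 by DESeq2's Wald test and 244 with no filter, against 35, and 7 to 210 with single libraries left out. Genes lower in LNP-Sirpa, against 5, numbered 14 by DESeq2, 98 with no filter, 24 with at least 5 UMIs of Ccr7 and Fscn1, 9 with a UMI of both genes, 8 with cells thinned to 2000 UMIs, 11 with the replicate block and 9 to 32 with single libraries left out. In alternatives chosen after seeing the data, Ccr7-rich cells gave 67 higher and 8 lower genes, and Ccr7-poor cells 51 and 13. The interaction with the type 1 gate, 46 genes, gave 8 by DESeq2, 21 with at least 5 UMIs, 3 with thinned cells, 16 with Ccr7-rich cells and 16 to 38 with single libraries left out. That with macrophages, 51 genes, gave 31 by DESeq2, 148 with no filter, 133 with at least 5 UMIs, 33 with a UMI of both genes, 23 with thinned cells and 17 to 164 with single libraries left out. The difference in the share of members turned to 0.002 percentage points under a limit of 50 macrophage UMIs per 10000, to 1.703 as a share of dendritic gated cells and to 0.011 for Ccr7-rich cells, and ranged from -0.699 to 0.614 with single libraries left out. Differences from macrophages that changed sign were Igfbp6 (-0.229) and Ly6a (0.612) with Ccr7-rich cells and Mcpt2 (-4.806 to 4.784) with single libraries left out. The causes were not tested. The 15 risen named genes all passed by DESeq2, with its size factors, with no filter, under the block and without LNP-Sirpa library 2, and 6 of them did not with thinned cells. Replicate numbers are shared by name only: deviations of the same-numbered libraries correlated at -0.275, and the replicate block gave 43 higher genes. The gate with a UMI of both genes rests on 17 cells in LNP-Sirpa library 2, 14 of them Ccr7-rich, and 2 libraries a group limit every test.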

Other observations

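Several genes that the naming rule did not choose for the treatment comparison lay apart between the groups in Ccr7-rich cells and are given as values, chosen after they were seen and without a test in these cells. Ly6a stood at 1070 and 1232 CPM in Ccr7-rich cells of the LNP-Sirpa libraries and at 103 and 75.1 CPM in those of the control libraries, while over all members its log2 difference of 1.24 did not pass (adjusted p = 0.138, edgeR). Arg1, the arginase of myeloid cells, stood at 614 and 1711 CPM against 83.6 and 103 CPM, and over all members its log2 difference of 2.51 did not pass (adjusted p = 0.0676, edgeR). Ly6a and Arg1 were both among the 48 genes called in the stricter gate with a UMI of Ccr7 and of Fscn1. Tnfsf8, which encodes the CD30 ligand, was lower, at 11.9 and 6.19 CPM against 61.0 and 75.1 CPM, and Cd70, the ligand of CD27, was at 24.7 and 21.7 CPM against 65.0 and 41.1 CPM. Fpr2 had no UMI in Ccr7-rich cells of either control library and stood at 31.5 and 37.1 CPM in those of the LNP-Sirpa libraries, at least 17.5-fold higher than a floor of 3 UMIs over the control group.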
